A study of Arabidopsis thaliana with 18 samples.

Results

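Untreated seedlings of the Arabidopsis mutant ecap-2 were compared with untreated Col-0 wild type, which shows what differed between the genotypes before jasmonic acid (JA) was given. The comparison took 6 of the 18 libraries, 3 per genotype, and all genes that could be tested, 17835 of 22209 listed. A gene was tested where it had an FPKM (fragments mapped to a transcript, scaled by its length and by the library's mapped fragments) of at least 1 in at least 3 of the 18 libraries. Each library was made from total RNA of whole seedlings, grown for 6 days on Murashige and Skoog plates with sucrose, under 16 h of light and 8 h of dark at 22 °C. The other libraries came from seedlings moved to plates with 50 µM JA for 1 or 3 h. The sample records mark both 0 h groups as untreated, although the titles call the wild type libraries controls and the ecap-2 libraries JA for 0 h. The labels give neither the lesion in ecap-2 nor a second allele or a rescued line, so the lesion and any other change carried by that line cannot be told apart. Whether replicates were grown as separate cultures is not stated either, and the spread behind each p-value, that between these libraries, may be technical.

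Jasmonates are oxylipin hormones made from plastid fatty acids by lipoxygenase, allene oxide synthase, allene oxide cyclase and a peroxisomal reductase. In the absence of the hormone, JAZ proteins bind MYC transcription factors and recruit TOPLESS-family co-repressors through adaptors such as NINJA, and the amino acid conjugate of JA leads to JAZ degradation through the receptor COI1. The series title describes ECAP as a further adaptor, between JAZ repressors and the co-repressor TPR2. Anthocyanins are flavonoid pigments. In Arabidopsis, the enzymes of the early flavonoid steps are shared with flavonols, and the late steps, from dihydroflavonol reductase onward, are switched on by a complex of an R2R3-MYB such as PAP1, a bHLH such as TT8 and the WD40 protein TTG1. JAZ proteins bind members of that complex, so jasmonate is an input to late anthocyanin genes. Its part in their levels in these seedlings was not tested.

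Total FPKM per library was 687996 to 728987 in wild type and 760383 to 801831 in ecap-2, and 1744 to 2054 genes per library were listed at 0. Read depth is unknown, and the steps between low FPKM values put it at 1.00 to 1.28 times that of wild type replicate 2. In a principal component analysis of the 6 libraries, the leading component held 64.8% of the variance and parted the genotypes, and the next, with 14.5%, set replicate 1 of both genotypes at 20 and 18 apart from replicate 3 at −11.4 and −20.8. Levels below are in FPKM, as means ± SD (n = 3), and changes are differences of log2(FPKM + 1), ecap-2 minus wild type, ± SE. On this scale the change of a gene with levels near 0 comes out too small. A gene was called higher or lower where its limma p-value, Benjamini-Hochberg adjusted over all tested genes, was under 0.05.

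AT3G58110, taken here as the ECAP gene from general knowledge since the labels and the gene table do not use that name, was measured at 16.1, 14.4 and 14.8 FPKM in the wild type libraries and at 2.43, 2.65 and 2.89 FPKM in the ecap-2 libraries. The groups lay far apart and each was tight. The gene lies on chromosome 3 from 21516635 to 21519862 on the plus strand, with 2 exons (RefSeq annotation of TAIR10.1, whose nuclear chromosomes are those of TAIR10). Its mean was 5.68-fold lower in ecap-2, a change of −2.14 ± 0.07 (adjusted p = 8.6e-12), so some transcript signal remained. It was as low at 1 h (−2.14) and 3 h (−1.97), in libraries that share nothing with the untreated ones. Around it, of the neighbouring genes that could be tested, XIJ, which encodes a myosin, was the 1 called gene, at −0.32 ± 0.11 (adjusted p = 0.024). That call was lost with the correction for GC content and length described below (−0.19, adjusted p = 0.15) and without wild type replicate 1 or 2 or ecap-2 replicate 3 (adjusted p up to 0.096). The other tested neighbours, AT3G58050, GIS, AT3G58090, PDCB5, BZIP61, AT3G58130 and AT3G58140, changed by −0.14 to 0.31 and were not called.

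Across the transcriptome, 3774 genes were higher in ecap-2 (21.2% of those tested) and 4106 were lower (23.0%), so 44.2% of tested genes differed before any JA was given. Most of these differences were small. The median absolute change of called genes was 0.43 on the log2 scale, and 629 genes changed at least 2-fold, 209 higher (1.17%) and 420 lower (2.35%). Without any test, the 3 libraries of each genotype did not overlap for 4522 genes higher (25.4%) and 4651 lower (26.1%), or 51.4% in either direction. The split between directions depended on scaling. When the libraries were rescaled to a common total, the median of all genes moved from −0.001 to −0.109, and 2303 genes were higher against 5880 lower, so that 28.1% of calls were higher instead of 47.9%. Each list below is therefore read against these shares of all genes and by the size of its members' changes. The lists were drawn up with earlier results of these data known, and no list was tested as a set. Where limma called 0 members of a list in a direction, 1 gene each of the nitrate, ER body, photosynthesis and camalexin lists had an unadjusted p under 0.05 in that direction and 0 genes of the other lists did, and no other tool was run.

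JA biosynthesis genes were higher in ecap-2, led by LOX2, AOC2, AOS and OPR3. In the list of synthesis enzymes, 7 of 14 tested genes were higher and 2 lower, with a median of 0.33, against a median of −0.001 over all genes. LOX2, the plastid lipoxygenase that oxygenates linolenic acid, stood at 6.22, 5.89 and 4.68 FPKM in wild type and at 23.2, 17.4 and 32.8 FPKM in ecap-2. All ecap-2 libraries lay well above all wild type libraries, and replicate 3 was the highest. The mean was 4.37-fold higher, a change of 1.91 ± 0.25 (adjusted p = 3.6e-05). AOS, the allene oxide synthase, was at 24.7, 26.2 and 24.0 FPKM in wild type and at 52.3, 46.9 and 52.8 FPKM in ecap-2. The groups were tight, did not overlap and differed by 2.03-fold (0.99 ± 0.13, adjusted p = 2.2e-05). AOC2, an allene oxide cyclase, was at 10.7, 12.4 and 12.9 FPKM in wild type against 23.8, 22.6 and 36.5 FPKM in ecap-2 (1.11 ± 0.17, adjusted p = 8.7e-05). OPR3, the peroxisomal reductase that acts on the cyclic intermediate, was at 16.3 ± 1.1 FPKM in wild type and 26.7 ± 1.8 FPKM in ecap-2 (0.68 ± 0.10, adjusted p = 4.7e-05). The 2 lower members, named after their values were seen, were AOC3, another cyclase, at −0.53 ± 0.11 (adjusted p = 0.00099), and JAR1, which joins JA to isoleucine to form the active hormone, at −0.28 ± 0.06 (adjusted p = 0.0014). The summed level of the list was 301 to 307 FPKM in the wild type libraries and 393 to 451 FPKM in the ecap-2 libraries.

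The promoters of AOS and LOX2 are shown because MYC factors bind the G-box CACGTG and its variant CACATG, and both genes were higher in the mutant. Each sequence holds the 250 bases before the annotated transcript start, 5′ to 3′ on the gene's strand, with matches to either motif in capitals (RefSeq, TAIR10.1).
AOS, chr5:17099596-17099845, minus strand: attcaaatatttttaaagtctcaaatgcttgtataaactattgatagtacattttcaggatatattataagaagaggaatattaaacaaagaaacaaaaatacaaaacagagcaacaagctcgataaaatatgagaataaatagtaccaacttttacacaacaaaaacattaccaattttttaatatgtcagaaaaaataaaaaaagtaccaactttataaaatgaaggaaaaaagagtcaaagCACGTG
LOX2, chr3:16524995-16525244, plus strand: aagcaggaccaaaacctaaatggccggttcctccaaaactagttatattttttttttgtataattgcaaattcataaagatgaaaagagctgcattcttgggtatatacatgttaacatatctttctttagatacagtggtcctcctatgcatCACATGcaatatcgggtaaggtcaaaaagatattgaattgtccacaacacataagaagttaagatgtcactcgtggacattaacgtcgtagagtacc
The AOS window ends in a G-box that begins 6 bases before the start, and the LOX2 window holds CACATG at 97 bases before the start and no G-box. Both strands were searched, and the G-box reads the same on either. Of 17790 tested genes with a window, 7.49% held CACGTG and 11.4% held CACATG. Among genes at least 2-fold higher the shares were 5.29% and 15.9%, and among those at least 2-fold lower 5.81% and 14.3%. Of the 14 synthesis genes, 2 held the G-box and 3 the variant. A match describes letters only.

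The repressors and co-repressors changed less. Among 7 tested co-repressors and adaptors, AT3G58110 was lower and NINJA, the adaptor that joins JAZ proteins to TOPLESS, was higher, at 24.0 ± 1.7 FPKM in wild type and 28.1 ± 1.9 FPKM in ecap-2 (0.22 ± 0.07, adjusted p = 0.026). The NINJA call was lost when the libraries were rescaled to a common total (0.10, adjusted p = 0.29) and without any of 4 libraries in turn (wild type replicates 2 and 3, ecap-2 replicates 1 and 2). TPR2, the co-repressor named in the series title, was at 28.8, 31.7 and 30.3 FPKM in wild type and at 27.5, 26.3 and 27.7 FPKM in ecap-2. Its groups did not overlap, and the change of −0.15 ± 0.08 was not called (adjusted p = 0.12). It passed with rescaling to a common total (−0.27, adjusted p = 0.0056), of all genes or of nuclear genes only (−0.27, adjusted p = 0.0053). Quantile normalization gave a call too (−0.19, adjusted p = 0.027), so the TPR2 result depended on scaling. TPL, TPR1, TPR3 and TPR4 changed by −0.10 to 0.12 and were not called. Of 11 tested JAZ genes, 3 were higher and 2 lower, with a median of −0.02. JAZ12 rose from 37.7 ± 4.8 to 51.7 ± 2.8 FPKM (0.45 ± 0.08, adjusted p = 0.00024) and JAZ11 from 8.97 ± 1.1 to 13.4 ± 1.6 FPKM (0.53 ± 0.09, adjusted p = 0.00029). JAZ4 (0.38), JAZ9 (−0.42) and JAZ10 (−0.46) were called too, but each call was lost in several alternatives, JAZ10 among them with the correction for GC content and length (−0.19, adjusted p = 0.40). JAZ1, JAZ2, JAZ3, JAZ7, JAZ8 and JAZ13, of which the last 3 were at under 1 FPKM in all 6 libraries, changed by −0.30 to 0.08 and were not called.

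Of 11 tested genes for the receptor and the transcription factors downstream of JAZ, 4 were lower and 2 higher. JAM1, a bHLH repressor of JA responses that competes with MYC2, was at 7.42, 7.41 and 6.92 FPKM in wild type and at 4.54, 4.86 and 4.76 FPKM in ecap-2. The groups were clearly separate (−0.53 ± 0.09, adjusted p = 0.00021). Its relative JAM2 (−0.41 ± 0.10), the activator MYC4 (−0.48 ± 0.11) and RD26, a NAC factor of drought and JA responses (−0.77 ± 0.16), were lower as well. Another relative, JAM3, named after its values were seen, was higher (0.21 ± 0.08, adjusted p = 0.032), so the JAM genes did not share a direction. MYC2, the main activator of the pathway and named here after its values were seen, was higher at 17.2 ± 2.2 FPKM against 12.6 ± 2.6 FPKM (0.43 ± 0.13, adjusted p = 0.012). Its call was lost with rescaling to a common total (0.32, adjusted p = 0.059) and without wild type replicate 3 (0.27) or ecap-2 replicate 1 (0.34). Of 9 tested hormone turnover genes 2 were higher (22.2%) and 2 lower (22.2%), with a median of 0.0. These shares are close to the 21.2% and 23.0% of all tested genes. CYP94B1, which hydroxylates and so inactivates the JA conjugate, was at 9.63, 11.7 and 13.2 FPKM in wild type and at 3.53, 4.56 and 3.78 FPKM in ecap-2. That is a wide gap between the groups (−1.33 ± 0.10, adjusted p = 8.0e-08). The amidohydrolases ILL6 (0.93 ± 0.17) and IAR3 (0.43 ± 0.08), which cleave the conjugate, were higher, and the methyltransferase JMT was lower (−0.56 ± 0.12).

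Genes used as markers of JA output gave no common direction. Of 7 tested, 2 were higher and 1 lower, with a median of 0.08. VSP1, a vegetative storage protein, was at 1.82, 2.61 and 1.55 FPKM in wild type and at 2.68, 3.60 and 7.94 FPKM in ecap-2, where replicate 3 alone was far above wild type. Its call (0.85 ± 0.27, adjusted p = 0.021) was lost without that library (0.48, adjusted p = 0.084) and without wild type replicate 1 (0.81) or 3 (0.74). CORI3, a coronatine-induced cystine lyase, was at 0.0796, 0.261 and 0.098 FPKM in wild type and 1.26, 0.624 and 2.80 FPKM in ecap-2 (1.07 ± 0.30, adjusted p = 0.010). These are low values, and the call was lost with a pseudocount of 5 (0.34, adjusted p = 0.19). PR4, a chitin-binding defence protein of the ethylene and JA branch, was lower, at 35.2 ± 2.7 FPKM against 55.1 ± 6.0 FPKM (−0.63 ± 0.09, adjusted p = 3.2e-05).

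**Figure D1:**
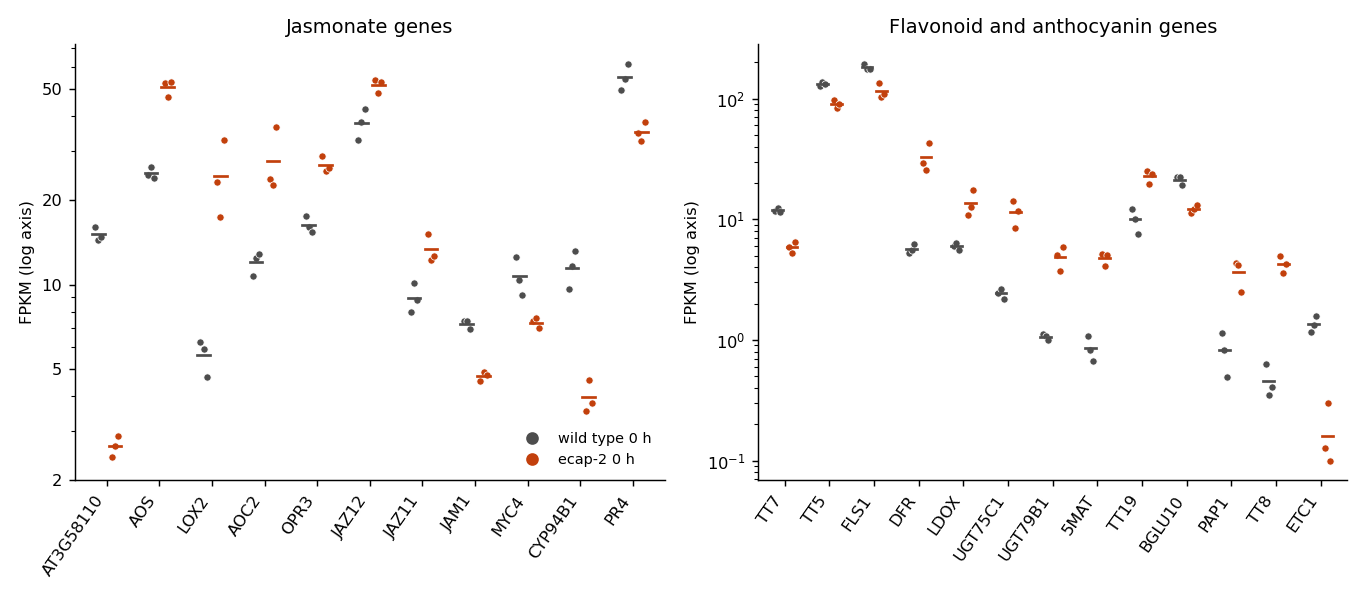
FPKM of single genes in the 6 untreated libraries, on log axes, with 1 point per library and a bar at the group mean; values under 0.1 are drawn at 0.1. AT3G58110, JAM1, MYC4, CYP94B1 and PR4 lie lower in ecap-2 and the JA synthesis genes higher, while TT7, TT5 and FLS1 fall and DFR, LDOX, UGT75C1, UGT79B1, 5MAT, TT19, PAP1 and TT8 rise.

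Late anthocyanin genes were higher in ecap-2 before JA, and most genes of the early flavonoid list were lower. In the late list, 6 of 11 tested genes were higher and 1 lower, with a median of 1.05. DFR, dihydroflavonol reductase, the enzyme that starts the anthocyanin branch, was at 5.28, 5.57 and 6.26 FPKM in wild type and at 29.3, 25.5 and 43.0 FPKM in ecap-2. The lowest ecap-2 library lay far above the highest wild type library, and the mean was 5.72-fold higher (2.29 ± 0.28, adjusted p = 1.7e-05). The sugar transferases followed. UGT75C1, the anthocyanin 5-O-glucosyltransferase, was at 2.45, 2.66 and 2.20 FPKM in wild type and 14.1, 8.51 and 11.8 FPKM in ecap-2 (1.84 ± 0.24, adjusted p = 2.6e-05). UGT79B1, the xylosyltransferase, was at 1.11, 1.08 and 0.998 FPKM in wild type and 5.03, 3.72 and 5.87 FPKM in ecap-2 (1.49 ± 0.21, adjusted p = 4.2e-05). Neither gene had overlapping groups. The malonyltransferase 5MAT rose from 0.858 ± 0.20 to 4.75 ± 0.61 FPKM (1.63 ± 0.22, adjusted p = 2.4e-05). LDOX, the dioxygenase that follows DFR, rose from 5.97 ± 0.39 to 13.7 ± 3.4 FPKM (1.05 ± 0.27, adjusted p = 0.0064). TT19, the glutathione transferase that carries anthocyanin to the vacuole, was at 12.2, 10.1 and 7.53 FPKM in wild type and 25.2, 19.5 and 23.9 FPKM in ecap-2. Its groups did not overlap, but the call (1.14 ± 0.34, adjusted p = 0.014) was lost without wild type replicate 3 (0.97, adjusted p = 0.055).

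Other late genes did not follow. BGLU10, an anthocyanin acyl-glucose glucosyltransferase, was lower, at 12.1 ± 0.88 FPKM against 21.2 ± 1.8 FPKM (−0.76 ± 0.10, adjusted p = 1.6e-05). UGT78D2, the 3-O-glucosyltransferase that also serves flavonols, was at 93.6, 75.6 and 62.2 FPKM in wild type and at 110, 84.1 and 73.0 FPKM in ecap-2, overlapping groups that were not called (0.20, adjusted p = 0.44). The acyltransferases AT1G03940 (−0.00), AT1G03495 (0.18) and SAT (−0.42) were not called either. As UGT78D2 is far more abundant than the rest, the summed level of the late list moved less than its median, from 138 to 182 FPKM in wild type to 202 to 242 FPKM in ecap-2.

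The DFR and UGT79B1 promoters are shown because both genes were among the late genes that rose and both windows hold G-boxes, drawn in capitals as above.
DFR, chr5:17166033-17166282, minus strand: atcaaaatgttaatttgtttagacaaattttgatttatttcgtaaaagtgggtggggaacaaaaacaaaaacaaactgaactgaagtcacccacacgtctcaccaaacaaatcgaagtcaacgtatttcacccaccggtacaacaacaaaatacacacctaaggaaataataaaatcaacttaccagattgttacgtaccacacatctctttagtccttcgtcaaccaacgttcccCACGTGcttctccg
UGT79B1, chr5:21938397-21938646, minus strand: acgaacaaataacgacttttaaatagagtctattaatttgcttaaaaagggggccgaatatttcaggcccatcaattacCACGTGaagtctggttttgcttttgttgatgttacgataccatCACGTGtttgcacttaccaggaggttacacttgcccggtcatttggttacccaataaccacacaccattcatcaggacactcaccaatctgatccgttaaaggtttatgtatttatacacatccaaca
The DFR window has a G-box beginning 14 bases before the start, and UGT79B1 has them at 171 and 128 bases before it. Of the 11 late genes 3 held a G-box (27.3%), of which 2 were among the 6 that were higher. Of the 13 early flavonoid genes, none of which was higher, 4 held one (30.8%), against 7.49% of all windows.

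Of the anthocyanin regulators, 3 of 13 tested were higher and 1 lower. TT8, the bHLH of the complex, was at 0.627, 0.348 and 0.406 FPKM in wild type and at 4.99, 3.61 and 4.23 FPKM in ecap-2. The mean was 9.29-fold higher and the groups stood far apart (1.85 ± 0.16, adjusted p = 2.6e-07). PAP1, the MYB, was at 1.13, 0.832 and 0.493 FPKM in wild type and at 4.34, 4.19 and 2.48 FPKM in ecap-2 (1.35 ± 0.36, adjusted p = 0.0079), a call lost with a pseudocount of 5 (0.57, adjusted p = 0.085). ETC1, a single-repeat MYB that inhibits such complexes, was at 1.16, 1.34 and 1.57 FPKM in wild type and near 0 in ecap-2, at 0.128, 0.301 and 0.0521 FPKM (−1.03 ± 0.17, adjusted p = 0.00013). LBD38, a nitrogen-responsive repressor of anthocyanin genes, was higher (0.42 ± 0.13, adjusted p = 0.012), although not with quantile normalization (0.30, adjusted p = 0.058) or without ecap-2 replicate 1 (0.35, adjusted p = 0.059). The bHLH factors GL3 (0.20) and EGL3 (−0.22), the WD40 protein TTG1 (0.07) and the repressors MYBL2 (−0.14), CPC (−0.33), TRY (−0.13), LBD37 (0.40), LBD39 (0.10) and SPL9 (−0.32) were not called.

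In the early flavonoid list, 8 of 13 genes were lower and 0 higher, by limma, with a median of −0.38. The list also holds general phenylpropanoid genes, which act before the flavonoid steps. Of the lower genes, PAL1 (−0.62), PAL2 (−0.68), 4CL1 (−0.33) and C4H are of that kind. The flavonoid genes CHS (−0.30, adjusted p = 0.11) and F3H (−0.24, adjusted p = 0.23) were not called. None of the 13 had a positive change. TT7, the hydroxylase that adds the second hydroxyl group of the B ring, was at 11.7, 12.5 and 11.4 FPKM in wild type and at 5.92, 5.28 and 6.52 FPKM in ecap-2 (−0.90 ± 0.16, adjusted p = 0.00033). TT5, chalcone isomerase, was at 132 ± 4.7 FPKM in wild type and 90.4 ± 6.5 FPKM in ecap-2 (−0.54 ± 0.10, adjusted p = 0.00037). FLS1, which makes flavonols, was at 182 ± 10 FPKM in wild type and 116 ± 17 FPKM in ecap-2 (−0.65 ± 0.13, adjusted p = 0.00067), and C4H, cinnamate hydroxylase, from 390 ± 6.4 to 288 ± 13 FPKM (−0.44 ± 0.08, adjusted p = 0.00043). The summed level of the list was 2410 to 2630 FPKM in wild type and 1766 to 2106 FPKM in ecap-2, with no overlap. Across the alternatives tried, apart from the 2-fold rule, 7 to 10 early genes were lower and 0 higher, and 5 or 6 late genes were higher.

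Most cytokinin response genes were lower in ecap-2. Of 10 tested genes of the list, mostly type-A response regulators, which cytokinin induces and which then damp its signal, 7 were lower and 0 higher by limma, with a median of −1.06. ARR5 was at 11.5, 10.6 and 11.7 FPKM in wild type and at 1.27, 1.90 and 4.25 FPKM in ecap-2 (−1.91 ± 0.22, adjusted p = 5.4e-06). ARR9 was at 42.5, 48.4 and 44.3 FPKM in wild type and at 18.6, 17.7 and 20.3 FPKM in ecap-2 (−1.22 ± 0.09, adjusted p = 3.9e-08). No library of either gene overlapped with the other genotype. ARR15 and ARR16 were lower by the same amount (both −1.37 ± 0.17), from 2.50 ± 0.71 and 2.84 ± 0.20 FPKM to 0.350 ± 0.25 and 0.522 ± 0.38 FPKM. These genes are AT-rich, between 34.0% and 37.9% GC, and the correction for GC content and length left ARR9 at −0.90, ARR5 at −1.65, ARR16 at −1.06 and ARR15 at −1.29. Across the alternatives tried, apart from the 2-fold rule, 4 to 8 genes of the list were lower and 0 or 1 higher. The median of the list ran from −1.18 to −0.50. Other hormone lists were mixed. The auxin repressor IAA3 was lower, at 12.9 ± 4.2 against 46.2 ± 6.4 FPKM (−1.80 ± 0.17, adjusted p = 1.1e-06), and IAA14 was higher, at 35.2 ± 1.6 against 17.4 ± 0.92 FPKM (0.98 ± 0.09, adjusted p = 4.5e-07), with 2 of 14 auxin genes higher and 4 lower. The gibberellin receptor GID1B was lower (−0.72 ± 0.07) and the DELLA repressor RGL1 higher (1.05 ± 0.13), with 3 of 14 higher and 2 lower. Of 10 ethylene genes 5 were higher and 1 lower, among them EBF2, an F-box protein that turns over EIN3 (0.55 ± 0.12).

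The iron deficiency list was split, with 10 of 27 tested genes lower and 6 higher and a median of 0.08. FRO2, the root ferric chelate reductase, was at 12.4, 6.44 and 5.09 FPKM in wild type and at 0.792, 0.481 and 0.762 FPKM in ecap-2 (−2.34 ± 0.21, adjusted p = 4.1e-07). IRT1, the main iron transporter of the root epidermis, was at 73.3, 53.8 and 50.7 FPKM in wild type and at 22.5, 9.67 and 10.6 FPKM in ecap-2 (−2.06 ± 0.40, adjusted p = 0.00094). In both genes and both genotypes replicate 1 was the highest library, and the genotypes still did not overlap. CYP82C4, a hydroxylase that makes the iron-mobilising coumarin sideretin, fell from 5.16 ± 3.0 to 0.126 ± 0.11 FPKM (−2.36 ± 0.24, adjusted p = 1.8e-06). BTSL1, a ubiquitin ligase that restrains the response (−1.52 ± 0.11), and the factor MYB10 (−0.86 ± 0.12) were lower as well. The 6 higher members were IMA1, IMA2, IRT2, COPT2, OPT3 and AHA2, of which all but COPT2 are named after their values were seen. IMA1, a small peptide that activates iron uptake, was at 21.3, 13.1 and 15.5 FPKM in wild type and 88.4, 40.1 and 36.7 FPKM in ecap-2 (1.58 ± 0.38, adjusted p = 0.0040), and its relative IMA2 changed by 1.31 ± 0.35. IRT2, a transporter related to IRT1, was at 13.4, 17.8 and 18.1 FPKM in wild type and 22.0, 31.2 and 32.6 FPKM in ecap-2 (0.76 ± 0.18, adjusted p = 0.0028), opposite to IRT1 and with no overlap. The copper transporter COPT2 (0.58 ± 0.11), the phloem transporter OPT3 (0.50 ± 0.15) and the proton pump AHA2 (0.23 ± 0.06) were higher too. The COPT2 call was lost with the GC and length correction (0.24, adjusted p = 0.087), that of AHA2 with rescaling to a common total (0.11, adjusted p = 0.13), and that of OPT3 without wild type replicate 3 (0.36) or ecap-2 replicate 1 (0.31). In the copper list, CITF1, a bHLH of copper uptake, was lower (−1.47 ± 0.19, adjusted p = 1.6e-05), and FSD1, the iron superoxide dismutase of plastids, was higher at 1080 ± 88 against 659 ± 130 FPKM (0.73 ± 0.11, adjusted p = 4.6e-05), with 4 of 13 genes higher and 3 lower.

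**Figure D2:**
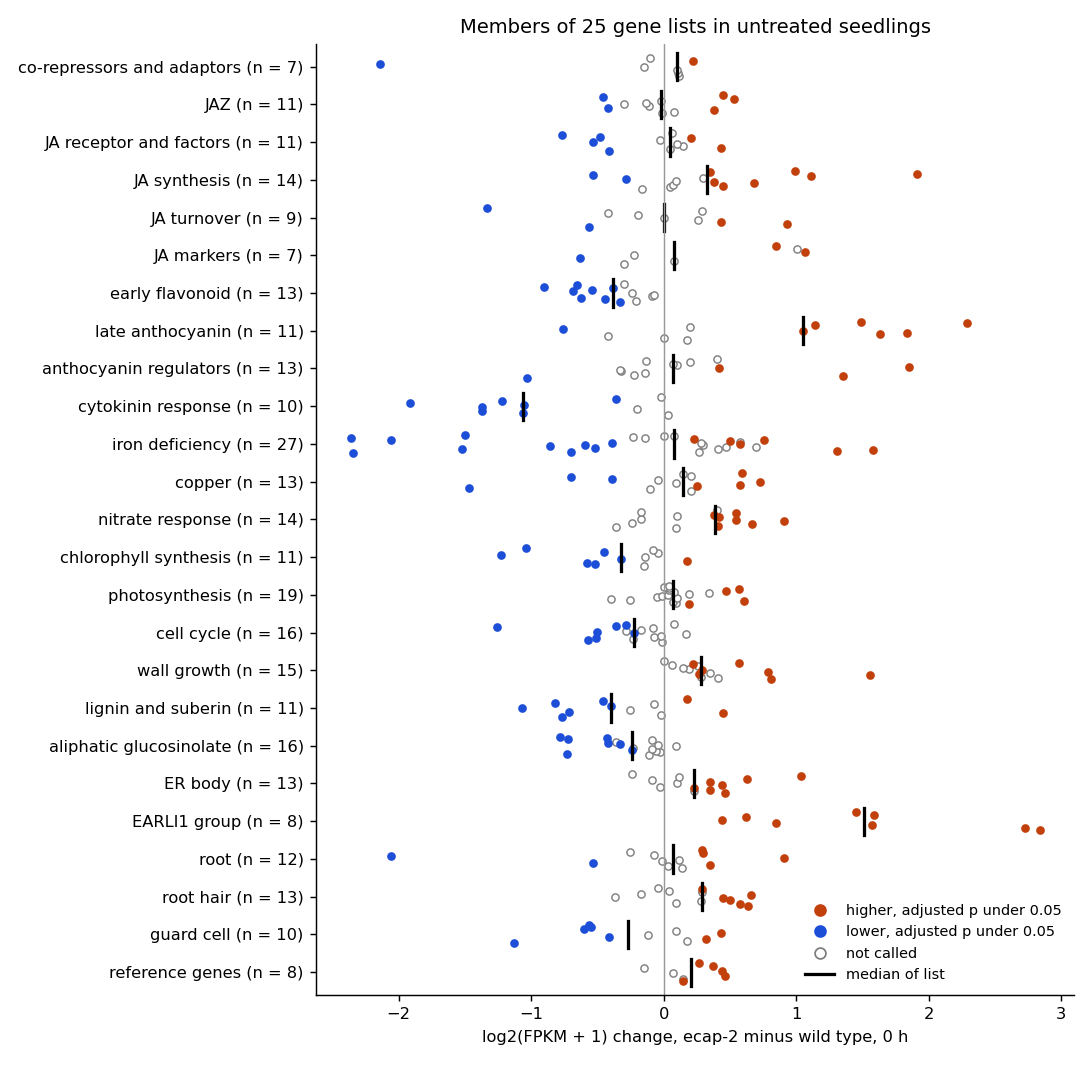
Change of each tested member of 25 gene lists (log2(FPKM + 1), ecap-2 minus wild type, 0 h), with 1 point per gene and a black bar at the list's median. Late anthocyanin and the EARLI1 group have medians of 1.05 and 1.51, cytokinin response a median of −1.06, and the other medians run from −0.40 to 0.39. Filled points are called genes, red where higher and blue where lower.

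Nitrate response genes were higher and chlorophyll synthesis genes mostly lower. Of 14 nitrate response genes, 7 were higher and 0 lower by limma, with a median of 0.39. Nitrite reductase NIR1 stood at 93.0, 82.2 and 84.1 FPKM in wild type and at 186, 167 and 139 FPKM in ecap-2 (0.91 ± 0.10, adjusted p = 2.1e-06), and nitrate reductase NIA2 rose from 380 ± 19 to 604 ± 40 FPKM (0.67 ± 0.10, adjusted p = 7.2e-05). In chlorophyll synthesis, 6 of 11 genes were lower. CHLI1, a subunit of the magnesium chelatase, was at 354, 366 and 361 FPKM in wild type and at 131, 161 and 170 FPKM in ecap-2, far apart and with little spread (−1.23 ± 0.11, adjusted p = 3.1e-07). PORA, the protochlorophyllide reductase of dark-grown seedlings, was at 1.25 ± 0.41 FPKM in wild type and 0.086 ± 0.041 FPKM in ecap-2 (−1.04 ± 0.15), and HEMA1 (−0.58 ± 0.11) and CAO (−0.52 ± 0.12) were lower. CHLG, the chlorophyll synthase and the 1 member that was higher (0.18 ± 0.06, adjusted p = 0.031), is named after its values were seen, and its sign turned with quantile normalization. Of 19 photosynthesis genes 4 were higher (21.1%, close to the 21.2% of all genes) and 0 lower by limma, but with quantile normalization 2 were higher and 5 lower and the median moved from 0.07 to −0.12. RBCS1A, the small subunit of Rubisco, was at 17100 ± 2200 against 11100 ± 460 FPKM (0.61 ± 0.08). Quantile normalization gives genes of equal rank in each library the same level. For a gene as abundant as RBCS1A it therefore cannot test the call, and the change came out at 0.0. ELIP2, an early light-induced protein, was lower at 347 ± 64 against 699 ± 10 FPKM (−1.02 ± 0.16).

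Of 15 cell wall growth genes 7 were higher and 0 lower by limma, with a median of 0.28. XTH4, a xyloglucan endotransglucosylase, was at 274, 315 and 299 FPKM in wild type and at 814, 859 and 939 FPKM in ecap-2 (1.56 ± 0.10, adjusted p = 1.4e-08), and the expansins EXPA11 (0.81 ± 0.16) and EXPA5 (0.79 ± 0.17) were higher. Of 11 lignin and suberin genes 6 were lower and 2 higher. The suberin genes FAR5 (−1.07 ± 0.11), ASFT (−0.82 ± 0.09) and GPAT5 (−0.71 ± 0.09), which build its alcohol, ferulate and glycerol parts, were all lower. Of 16 cell cycle genes 7 were lower and 0 higher by limma, with a median of −0.22. The mitotic cyclin CYCB2;2 was at 3.92, 3.38 and 3.17 FPKM in wild type and at 0.940, 0.854 and 0.837 FPKM in ecap-2 (−1.26 ± 0.10, adjusted p = 1.4e-07), and the cytokinesis syntaxin KNOLLE was at 19.0 ± 1.3 and 12.5 ± 1.0 FPKM (−0.57 ± 0.10).

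Among defence genes, aliphatic glucosinolate synthesis was lower in 7 of 16 genes and higher in 0 by limma, with a median of −0.24. They included the MYB activator MYB28 (−0.78 ± 0.16), the chain elongation enzyme MAM1 (−0.72 ± 0.16) and the sulfotransferase SOT17 (−0.73 ± 0.08). The indole branch had 4 of 18 lower and 3 higher, with SOT16 at −0.67 ± 0.07 and CYP79B2, the entry enzyme from tryptophan, at −0.69 ± 0.11. Of 13 genes of ER bodies, endomembrane stores of glucosidase, 7 were higher and 0 lower by limma, and the ER body membrane protein MEB1 rose from 33.9 ± 3.3 to 70.4 ± 5.1 FPKM (1.04 ± 0.08, adjusted p = 7.1e-08). PR1, the classical salicylic acid marker, was listed at 0 in all 3 wild type libraries and at 2.03, 2.81 and 2.78 FPKM in ecap-2 (adjusted p = 5.3e-08), while ICS1, which makes salicylic acid, was lower (−0.50 ± 0.10). The salicylic list had 3 of 10 genes higher and 3 lower.

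Lipid-transfer-like genes of the EARLI1 group, which lie side by side on chromosome 4 and include genes of systemic immunity, were higher in 8 of 8 tested members, with a median of 1.51. AZI1, which takes part in systemic acquired resistance, was at 61.6, 47.3 and 51.9 FPKM in wild type and at 404, 391 and 366 FPKM in ecap-2, 7.22-fold higher (2.84 ± 0.12, adjusted p = 2.4e-10). EARLI1 itself was at 59.8, 44.6 and 52.9 FPKM in wild type and at 396, 314 and 351 FPKM in ecap-2 (2.73 ± 0.15, adjusted p = 3.0e-09). Both genes were far above wild type in every ecap-2 library. AIR1 (1.45 ± 0.10) and AT4G12545 (1.59 ± 0.13) were higher too. The members are close copies of each other, so the authors' read assignment could divide fragments among them, and the level of each is uncertain. The list was drawn up knowing that these genes differed, so its count is a description.

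By size, the largest rise among genes of at least 5 FPKM in the higher genotype was AT1G75945, an uncharacterized gene on chromosome 1 from 28515245 to 28515916, at 0, 0 and 0.177 FPKM in wild type and at 37.1, 35.8 and 28.7 FPKM in ecap-2 (5.04 ± 0.12, adjusted p = 7.2e-14). In this gene the genotypes differed nearly as presence against absence. AT4G07820, of the CAP family of secreted proteins, was at 0.615 ± 0.16 FPKM in wild type and 16.8 ± 1.8 FPKM in ecap-2 (3.46 ± 0.17), and AT1G34047, a defensin-like gene, was at 0.139 ± 0.16 and 5.38 ± 0.53 FPKM (2.49 ± 0.20). AT4G12495, a short gene within the EARLI1 region, rose by 3.61 ± 0.35. Other large rises were the dirigent-like AT4G11190 (2.54), the cytochrome P450 AT5G36130 (2.36), the transporter UMAMIT17 (2.20), the GDSL lipase AT1G54010 (2.13) and CYP707A2 (2.10), which degrades abscisic acid. The glycine-rich proteins AT2G05510 (2.42), AT5G46730 (2.16) and GRP-3 (2.16) were also among the 15 largest, and AT2G05510 and GRP-3 are neighbours of similar sequence. In windows of 1 Mb, chromosome 4 held 5 genes at least 2-fold higher of 65 tested from 5 to 6 Mb. The next windows, up to 9 Mb, held 7 of 126, 9 of 162 and 9 of 173, against 1.17% of all tested genes. At least 2-fold lower in these windows were 0, 8, 3 and 1 genes. On chromosome 5 the window from 17 to 18 Mb held 10 higher of 172, and that of AT3G58110 held 0 of 195. These windows were picked after their values were seen. Windows with fewer tested genes were denser, among them 4 of 36 on chromosome 2 from 2 to 3 Mb. On chromosome 5 the window from 14 to 15 Mb held 6 of 72. The cause was not tested.

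Among the largest falls, OXS3, a chromatin-associated stress tolerance protein, was at 37.7, 72.3 and 38.8 FPKM in wild type and at 1.74, 1.13 and 1.72 FPKM in ecap-2, 32.4-fold lower (−4.27 ± 0.62, adjusted p = 0.00012). RGF9, a peptide that maintains the root meristem, was at 49.8, 43.4 and 71.4 FPKM in wild type and at 1.74, 2.39 and 3.87 FPKM in ecap-2 (−3.94 ± 0.26, adjusted p = 5.3e-08). Both were low in every mutant library, although groups that do not overlap were a condition for this choice of genes. The ribosomal protein L41 genes AT3G11120 (−3.47 ± 0.28) and AT3G56020 (−3.02 ± 0.40) were both lower. AT3G11120 was at 125, 112 and 192 FPKM in wild type and at 13.0, 8.13 and 14.9 FPKM in ecap-2. They are near copies, so their single levels are uncertain. The others were AT4G09890 (−3.55), AT1G72645 (−3.53), AT3G25930 (−3.47), AT5G19190 (−3.29), AT5G14410 (−3.29), AT4G13500 (−3.13), AT3G61898 (−2.99), AT4G01897 (−2.92), AT5G47060 (−2.87) and the reticulon AT1G68230 (−2.82), mostly genes without a known role. ATCG00640, a plastid gene, was at 41.4, 112 and 43.4 FPKM in wild type and listed at 0 in all ecap-2 libraries, while organelle-encoded genes as a whole made up 0.127 to 0.507% of total FPKM in wild type and 0.0989 to 0.174% in ecap-2. The part of organelle RNA content in that difference was not tested.

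**Figure D3:**
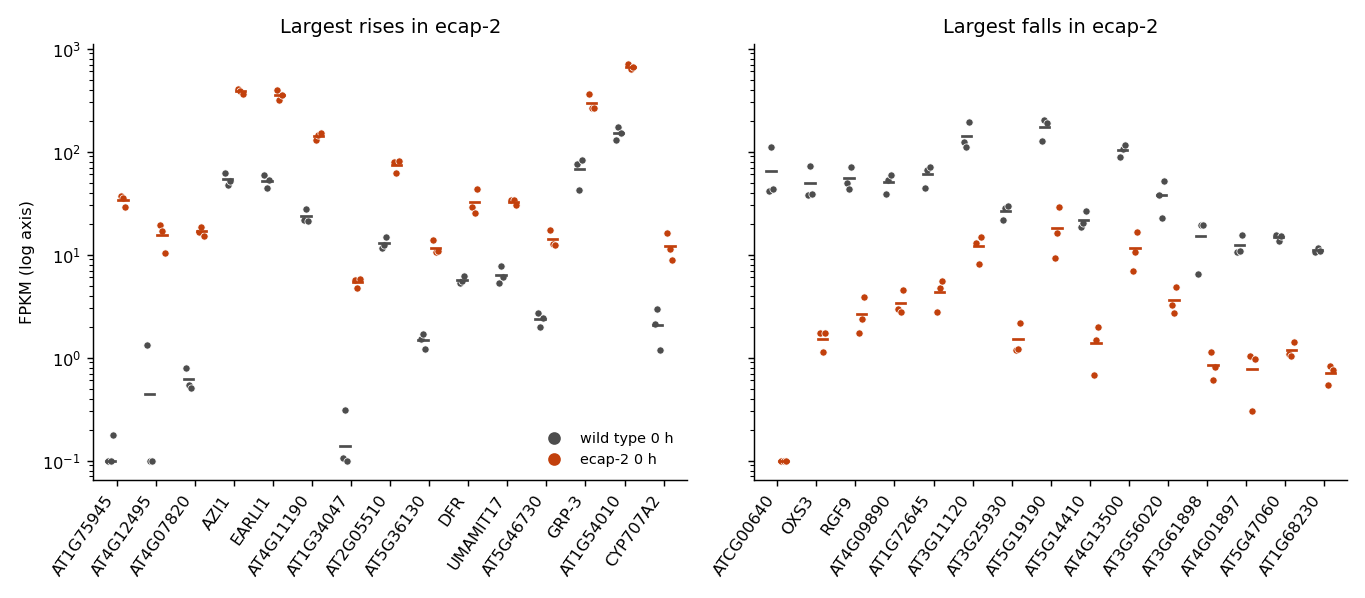
FPKM of the 15 genes with the largest rises and the 15 with the largest falls in the 6 untreated libraries, on a log axis, with 1 point per library and a bar at the mean; values under 0.1 are drawn at 0.1. The genotypes lie apart in every gene, which the choice of genes required, and several reach the floor in wild type (AT1G75945) or in ecap-2 (ATCG00640).

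Markers of tissues were compared because whole seedlings mix roots, leaves and other organs, and fewer cells of a type cannot be told apart from less RNA per cell. Of 12 root genes 4 were higher and 2 lower, and their summed level was 2312 to 2489 FPKM in wild type and 2839 to 3051 FPKM in ecap-2. Of 13 root hair genes 6 were higher and 0 lower by limma, among them EXPA7 (0.58 ± 0.14) and PRP3 (0.66 ± 0.17), with sums of 262 to 347 and 328 to 460 FPKM that overlapped. The EXPA7 call was lost with the GC and length correction (0.37, adjusted p = 0.051). Of 10 guard cell genes 5 were lower and 2 higher, with sums of 74.1 to 77.8 FPKM in wild type and 56.2 to 58.2 FPKM in ecap-2. The guard cell MYB factor MYB60 was at 16.7, 17.3 and 15.7 FPKM in wild type and at 4.64, 8.61 and 8.47 FPKM in ecap-2 (−1.13 ± 0.17), and the stomatal bHLH genes FAMA (−0.60 ± 0.08) and SPCH (−0.56 ± 0.11) and the channel KAT1 (−0.55 ± 0.09) were lower, as was the kinase HT1 (−0.41 ± 0.11). The 2 higher members were the stomatal peptides EPF1 (0.43 ± 0.16, adjusted p = 0.044) and EPF2 (0.32 ± 0.12, adjusted p = 0.046), whose groups overlapped and whose calls were lost with rescaling to a common total (adjusted p = 0.11 and 0.18) and without ecap-2 replicate 1 (adjusted p = 0.23 and 0.11), among other alternatives. EPF1, EPF2 and HT1 are named after their values were seen. Photosynthesis genes summed to 45610 to 52760 FPKM in wild type and 57520 to 64910 FPKM in ecap-2, shoot meristem genes to 52.5 to 59.8 and 60.4 to 68.7 FPKM, trichome genes to 41.0 to 49.9 and 38.5 to 45.7 FPKM, and seed storage genes to 28.7 to 35.9 and 9.19 to 87.2 FPKM. No tissue list was at 0 in any library. The part of tissue proportions in the results above was not tested.

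Genes often taken as stable references were also called, with 5 of 8 higher and 0 lower by limma and a median of 0.21. With rescaling to a common total 3 were higher, and with quantile normalization 1. UBQ10, a polyubiquitin, was at 638, 769 and 735 FPKM in wild type and at 962, 941 and 992 FPKM in ecap-2 (0.44 ± 0.09, adjusted p = 0.00073), and the actin ACT8 was at 179 ± 6.9 and 247 ± 9.3 FPKM (0.46 ± 0.07, adjusted p = 8.4e-05). Both calls held with rescaling to a common total (0.32 and 0.34), and that of UBQ10 was lost with quantile normalization (0.21, adjusted p = 0.063). Total FPKM per library was higher in ecap-2, as given above.

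Transcript composition moved with the difference between genotypes. Lower genes had a median GC content of 40.4% and a spliced length of 1855 bases, against 41.8% and 1539 bases for higher genes and 41.3% and 1718 bases for all. Among genes changed at least 2-fold, the lower ones had 38.3% GC and 1370 bases and the higher ones 39.8% and 956 bases, so the large changes in both directions were in AT-rich and short genes. Across 10 equal groups of genes from the lowest to the highest GC content, the median change ran from −0.15 to 0.12 and the share called higher from 18.2% to 29.6%. Across such groups from the shortest to the longest transcripts it ran from 0.17 to −0.06. Fitting out both properties in every library gave 3657 higher and 4045 lower genes, of which 3017 and 3372 were among the original calls in that direction, while 42 called genes changed sign. The part of library composition in single genes was not tested beyond this.

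**Figure D4:**
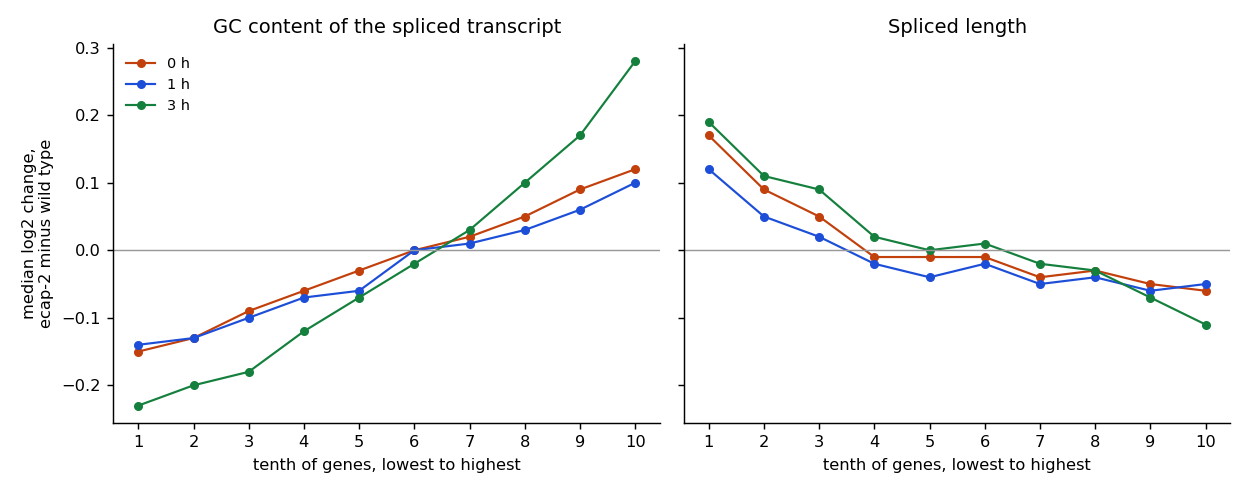
Median change (log2(FPKM + 1), ecap-2 minus wild type) of tested genes in 10 equal groups by GC content (left) or spliced length (right), from lowest to highest, at 0, 1 and 3 h. At 0 h the medians rise from −0.15 to 0.12 with GC content and fall from 0.17 to −0.06 with length, and the medians at 1 and 3 h run in the same directions.

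The differences seen before JA were largely found again after it, in libraries that share no sample with the untreated ones. The calls at each time share the estimate of a gene's spread, which was made over all 18 libraries. A gene of small spread is therefore favoured at every time, and repeated calls are not independent. At 1 h 3201 genes were higher (17.9%) and 3912 lower (21.9%), 39.9% in all. At 3 h 5144 were higher (28.8%) and 5108 lower (28.6%), 57.5% in all. Of the 3774 genes higher at 0 h, 2533 were called higher at 1 h (67.1% of them, 79.1% of those higher at 1 h) and 3122 at 3 h (82.7% and 60.7%). Of the 4106 lower genes, 3034 were called lower at 1 h (73.9%, and 77.6% of those lower at 1 h) and 3379 at 3 h (82.3% and 66.2%). Few turned, with 12 and 20 of the higher genes called lower at 1 and 3 h, and 5 and 41 of the lower genes called higher. Of the genes changed at least 2-fold, 171 of 209 higher ones and 372 of 420 lower ones were called in the same direction at both later times. Across all 17835 genes the change at 0 h had a Pearson correlation of 0.85 with that at 1 h and 0.84 with that at 3 h, given as a description across genes that share libraries within each time.

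Some lists did not keep their direction. The early flavonoid list had a median of −0.38 at 0 h, −0.16 at 1 h and 0.29 at 3 h. TT7, lower at 0 h, differed by 1.29 at 3 h. In the same order of times, medians were −0.48, 0.08 and 0.26 for heat shock genes and −0.40, −0.59 and 0.10 for lignin and suberin genes. For cold genes they were 0.15, −0.56 and −0.13. Late anthocyanin genes differed in the same direction at all times. DFR changed by 2.37 at 1 h and 2.94 at 3 h, UGT79B1 by 1.52 and 2.56, UGT75C1 by 1.93 and 2.83, and TT8 by 1.63 and 2.08. For DFR the rise of the difference from 0 to 3 h was not called (0.64 ± 0.39, adjusted p = 0.40). AZI1 (2.92 and 3.04), AT1G75945 (4.83 and 5.01), RGF9 (−2.92 and −3.79) and ARR9 (−1.08 and −1.41) also differed at both times in the same direction. For LOX2 the difference was not called at 1 h (0.48, adjusted p = 0.14) or at 3 h (0.55, adjusted p = 0.073), and the change of the difference from 0 h was −1.43 ± 0.35 (adjusted p = 0.14) and −1.36 ± 0.35 (adjusted p = 0.057), neither of them called. AOC2 differed by 0.03 at 1 h and −0.01 at 3 h, and its change from 0 to 3 h was called (−1.12 ± 0.24, adjusted p = 0.024). AOS (0.73 and 1.03) and OPR3 (0.73 and 1.12) remained higher at both times. Over all tested genes the genotype difference was called as changed for 56 genes from 0 to 1 h (0.314%) and 432 from 0 to 3 h (2.42%).

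**Figure D5:**
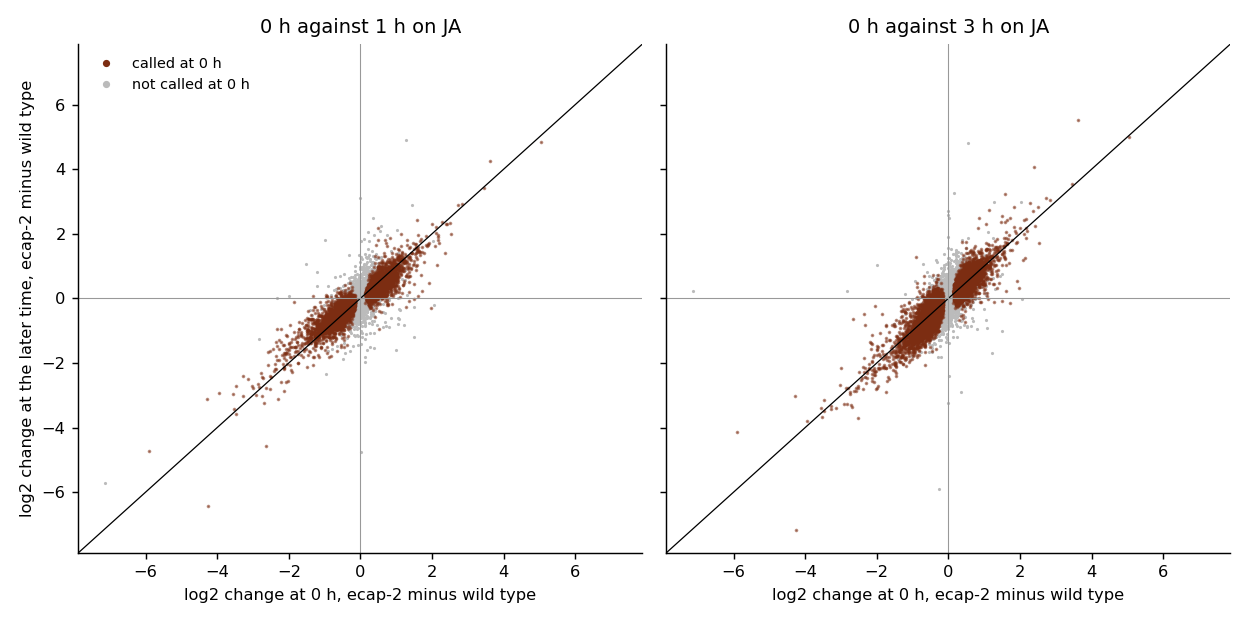
Genotype difference of each of 17835 genes at 0 h (horizontal) against 1 h (left) and 3 h (right), all in log2(FPKM + 1), ecap-2 minus wild type, with genes called at 0 h in brown and the line of equal change in black. The points follow the line, with correlations of 0.85 and 0.84 across genes.

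Of 11 phosphate genes 5 were lower and 1 higher (SPX1 −0.89 ± 0.23), of 14 sulfur genes 2 were lower and 2 higher (LSU2 1.12 ± 0.33, lost without wild type replicate 1, and SULTR1;2 −0.88 ± 0.30, lost in several alternatives), and of 14 sugar starvation genes 3 were higher and 1 lower. In the last, the beta-amylase BAM5 was at 0.0967, 0.104 and 0.0585 FPKM in wild type and at 4.07, 4.84 and 5.13 FPKM in ecap-2 (2.38 ± 0.28, adjusted p = 1.5e-05), close to absent in every wild type library. Of 17 redox genes 6 were higher and 1 lower (catalase CAT3 0.91 ± 0.13), and of 13 heat shock genes 4 were lower and 0 higher by limma (DREB2A −0.76 ± 0.17). Of 8 cold genes 2 were higher (COR413-PM1 0.85 ± 0.11). Of 11 drought genes 3 were lower, among them RD26 (−0.77 ± 0.16), and 1 was higher (RD22 0.78 ± 0.11), with a median of −0.15. Of 18 clock genes 4 were higher and 4 lower (ZTL 0.38 ± 0.07 and RVE1 −0.68 ± 0.16). Of 12 silencing genes 2 were lower and 1 higher (DDM1, a chromatin remodeler of DNA methylation, −0.55 ± 0.07), and of 6 shoot meristem genes 2 were higher and 1 lower (AS2, a leaf polarity factor, 1.15 ± 0.19). Of 15 light response genes 1 was higher and 3 lower, of 14 touch and early stress genes 2 and 3, of 8 wax and cutin genes 3 and 3, of 6 iron excess genes 2 and 1, of 5 camalexin genes 0 and 2 and of 5 flavonol regulators and glycosyltransferases 0 and 2.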

How the data were processed

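Total RNA of whole seedlings was sequenced on the Illumina HiSeq platform, per the labels' protocols. The authors deposited 1 table of FPKM per library. TopHat2, Cufflinks and the TAIR10 build are named in the submitters' processing notes, and the versions, annotation and read depth are not given in the sources used here. FPKM is scaled by each library's mapped fragments, so a shift in abundant transcripts moves the FPKM of all others.

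Here log2(FPKM + 1) was fitted for 17835 genes that reached an FPKM of 1 in 3 or more of 18 libraries, with limma 3.58.1 in R 4.3.3, with 6 group means, 12 residual degrees of freedom, an intensity trend and robust empirical Bayes moderation. The spread was thus estimated over all 18 libraries. The p-values were Benjamini-Hochberg adjusted over all tested genes and called at 0.05. The script was tested on simulated data. Groups follow the labels, with 3 libraries each, and identical libraries were not found.

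The members, gene lists and tests were chosen with earlier results of these data known. Genes named were AT3G58110 and up to 5 annotated neighbours on each side, the 15 largest rises and 15 largest falls among called genes with groups that do not overlap and a mean of at least 5 FPKM in the higher group, up to 4 called members of smallest p per list, and any member of the co-repressor, JAZ, late anthocyanin and anthocyanin regulator lists. MYC2, IMA1, IMA2, IRT2, OPT3, AHA2, CHLG, AOC3, JAR1, EPF1, EPF2 and HT1 were named after their values were seen. JAM3, PAL1, PAL2, 4CL1, CHS and F3H were too, and they are left out of the counts over named genes given below. Sequences, GC content and spliced length came from RefSeq TAIR10.1, matched by locus identifier for 22122 of 22209 genes, and 99.7% of tested genes had both properties. Alternatives covered the pseudocount (0.1 and 5), the filter, scaling, moderation, the libraries in the fit, library weights, a 2-fold rule, a correction for GC content and length, a replicate block and each untreated library left out in turn. Figures were drawn with matplotlib 3.10.9 from tables made with pandas 2.3.3.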

Additional observations from a re-analysis of the deposited data

Results flagged for a closer look

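For 18 named genes the difference between genotypes was itself different after JA, by limma's test of the change in that difference (log2 scale, later time minus 0 h, adjusted over all genes, called for 0.314% of genes at 1 h and 2.42% at 3 h). Of the genes lower in ecap-2 before JA, the change was 2.19 for TT7 at 3 h, where the difference turned from −0.90 to 1.29. It was 0.70 for TT5 and 0.67 for C4H at 3 h, and 0.98 at 1 h and 0.94 at 3 h for CYP94B1. It was also positive at 3 h for FRO2 (1.51), CYP82C4 (1.88), BTSL1 (0.67), PR4 (0.55), AOC3 (0.66) and GID1B (0.46). CHLI1, also lower before JA, moved further down by 3 h (−0.63), as did ASFT by 1 h (−0.94). Of the genes higher before JA, AOC2 changed by −1.12 at 3 h and AT4G11190 by −0.84 at 3 h. AT5G36130 changed by −0.97 at 1 h, and AT1G54010 by −1.09 at 1 h and −0.88 at 3 h. BAM5 rose further, by 1.68 at 3 h. UGT78D2, not called before JA, changed by 1.30 at 3 h.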

How the results depend on the processing

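With rescaling to a common total, 2303 genes were higher at 0 h, 1522 of them also at 1 h and 1563 at 3 h, and 5219 genes were lower at both 0 and 3 h. With nuclear genes only, rescaled to their total, these counts were 2284, 1506, 1552 and 5259. Under the 2-fold rule at both times, 209 genes were higher and 420 lower at 0 h, 125 and 252 also at 1 h, and 155 and 348 also at 3 h. Without each untreated library in turn, 3027 to 3468 genes were higher and 3329 to 3925 lower. With a replicate block, 3969 were higher and 4296 lower. Same-numbered libraries had correlations of deviations of 0.322, −0.102 and 0.168, so the numbers were not taken as pairs, and wild type replicate 2 correlated best with ecap-2 replicate 3 (0.221). CHLG was at −0.0045 with quantile normalization, and the cause was not tested. Over 20 alternatives, 3161 of 3401 values of named genes kept their direction and side of the threshold and 166 lost their call, 72 of them under the 2-fold rule, where the p-values are unchanged. Of the rest, 36 gained a call, 37 values that were not called changed sign, and so did 1 called value, that of CHLG. The mean FPKM filter of at least 5 left fewer genes to test. Limits are 3 libraries per group, 1 mutant line, whole seedlings, unknown read depth and FPKM values whose scale differs between the genotypes.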
